A study of Mus musculus with 8 samples.

Results

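The genes described here are those of the mitochondrial ribosome (symbols starting with Mrpl or Mrps) and of the mitochondrial protein import translocases (Timm and Tomm), found by the NCBI Gene ID that a probe identifier carries. They comprised 54 of 24048 probes and 48 of 7409 named genes: 19 Mrpl, 16 Mrps, 6 Timm and 7 Tomm genes. The RefSeq table lists 104 protein-coding genes with such symbols, so 56 had no probe found by this rule. The set was put together as genes of mitochondrial ribosome and translation, but 13 of its 48 members belong to protein import by name, and translation factors and tRNA synthetases carry other symbols and are given separately. The livers were those of 8 males 23 weeks old, 4 labelled Gpx3 transgenic and 4 labelled B6/DBA wildtype, with 1 array each. All 8 ate chow with 4% fat until 11 weeks of age and chow with 6% fat from then on. Gpx3 encodes a secreted glutathione peroxidase that removes peroxides. The promoter of the transgene and the cells that express it are not given in the sources used here, and 0 probes were named Gpx3, so the transgene itself was not checked. Titles of transgenic animals 1 to 3 share a stem, transgenic animal 4 has another, and all 4 wildtype titles share one more. The meaning of the stems is not stated, and stem and genotype cannot be told apart.

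Mitochondria make a small set of respiratory chain subunits on their own ribosomes, whose RNA is encoded by mitochondrial DNA. The proteins of these ribosomes are encoded in the nucleus, with Mrpl genes for the large subunit and Mrps genes for the small one. They are made in the cytosol and imported, as nearly all mitochondrial proteins are. The TOM complex of the outer membrane (Tomm genes) receives precursors, and the TIM complexes and small TIM chaperones (Timm genes) pass them to the inner membrane and matrix. Hepatocytes are rich in mitochondria, which house steps of the urea cycle, fatty acid oxidation and gluconeogenesis.

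Signals are background-subtracted intensities on a linear scale, per probe. For the comparison, values below a floor of 16 units were set to 16 and log2 was taken. Probes with a mean log2 signal above the lower quartile were tested, which left 14759 probes, among them 48 member probes for 44 genes. That quartile equalled the floor (4 on the log2 scale), so a probe passed with 1 array above 16 units. The tested probes thus include many near the floor, and 8890 of the 14759 lay above it on every array. A probe's signal depends on its sequence, so signals are set side by side between animals and not between genes. In whole liver, fewer cells of a type and less RNA per cell cannot be told apart. The 3 hepatocyte markers with a probe (Apoa1, Apoa2 and Serpina1a, of 12 listed) summed to 82219 to 94803 units in transgenic livers, against 86179 to 93364 in wildtype livers. All 4 erythroid markers with a probe, of 11 listed, had lower means in transgenic livers. Of these, 3 had an unadjusted p under 0.05 in limma, where 3.59% of all tested probes were lower at that level. At an adjusted p under 0.05 there were 0 (limma, lowest adjusted p = 0.592, for Hba-a1). The sum of the 4 erythroid markers, most of it Hba-a1, lay between 9659 and 10824.5 units in transgenic livers, against 11342 to 25126 in wildtype livers, so the groups did not overlap. None of those 4 genes was at or below the floor in any animal. Endothelial markers (4 of 4 with lower means, 1 of them, Emcn, at an unadjusted p of 0.0314 in limma) summed to 3517 to 4294 units in transgenic livers, against 3746 to 4501 in wildtype livers. Most of that sum was Clec4g, at 3558 ± 288 units in transgenic livers, against 3701 ± 306 in wildtype livers (SD, n = 4 each). Pecam1 had 1 array at or below the floor. Stellate cell markers (3 tested, 2 with lower means) summed to 1766 to 2226 units in transgenic livers, against 2059 to 2181 in wildtype livers. Most of that sum was Reln, at 1714 ± 209 units in transgenic livers, against 1738 ± 40.9 in wildtype livers (SD, n = 4 each). Col1a2, whose mean was higher, was at or below the floor on 7 of 8 arrays. Among these markers Lrat had 277 ± 49.4 units in transgenic livers, against 378 ± 14.8 in wildtype livers (SD, n = 4 each), without overlap (limma unadjusted p = 0.00767, adjusted p = 0.592). Of all tested probes, 1.83% were lower in transgenic livers without overlap. Leukocyte markers (8 of 9 with a probe tested, 6 with lower means) summed to 1365 to 1879 units in transgenic livers, against 1436 to 2161 in wildtype livers, with Cd68, Cd3e and Lyz2 at or below the floor in most animals. Their part in the differences below was not tested.

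No member probe passed the threshold of the comparison. Of 48 tested member probes, 0 reached an adjusted p of 0.05 (limma with Benjamini-Hochberg adjustment), the lowest being 0.606. Over all 14759 tested probes 0 passed too (0.0%). At an unadjusted p under 0.05 there were 5 member probes (10.4%), against 6.82% of all tested probes. Of these, 4 were lower in transgenic livers (Timm8b, Mrpl35, Mrpl30 and Mrpl49), 8.33% against a background of 3.59%. The other 1 was higher (a dim probe of Mrpl1), 2.08% against a background of 3.23%. Among the 38 member probes with a mean signal over 100 units the count was 3 (7.89%), against 9.52% of the 5968 such probes on the array. Taken over both directions, the share of member probes at this level was thus near the background in both views. The share of lower probes alone, which rests on 4 probes, was above that of all tested probes. Of the 4, Mrpl35 had 3 transgenic arrays at or below the floor. A lower share was not taken for the probes over 100 units. The 5 member probes became 2 with array medians aligned and 8 with a mean-variance trend and robust variance in limma. Counts over all probes were then 851 and 1037 of 14759, against 1006 as deposited. There were 2 member probes without transgenic animal 2 and 3 without transgenic animal 3 (879 of 14651 and 818 of 14474 over all probes). There were 2 without wildtype animal 1 and 8 without wildtype animal 3 (802 of 14527 and 1225 of 14626 over all probes).

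The differences were small and more often negative than positive. Of 44 tested member genes, each represented by its brightest probe, 30 had a negative and 14 a positive log2 difference (transgenic minus wildtype), and 36 lay within 0.25 of 0. The negative share was 68.2%, against 53.3% of all tested probes. Among probes with a mean signal over 100 units it was 68.4% of 38 member probes, against 55.6% of 5968 probes. The median difference was -0.06 on the log2 scale, with quartiles of -0.15 and 0.01, against a median of -0.02 over all tested probes. The split moved with scaling, and so did that of all tested probes. With array medians aligned 25 of 44 genes (56.8%) were negative, while 53.2% of all tested probes were positive. After quantile normalization 26 genes (59.1%) were negative, while 51.9% of all tested probes were positive. The median differences were then -0.03 and -0.02 over member genes, against 0.01 and 0.01 over all tested probes. Without transgenic animal 1, 37 were negative and 7 positive, where 43.0% of all tested probes were positive. Over all probes the split of those at an unadjusted p under 0.05 moved with scaling as well, with 476 of 1006 higher in transgenic livers as deposited, 508 of 851 with medians aligned and 634 of 1038 after quantile normalization.

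**Figure D1:**
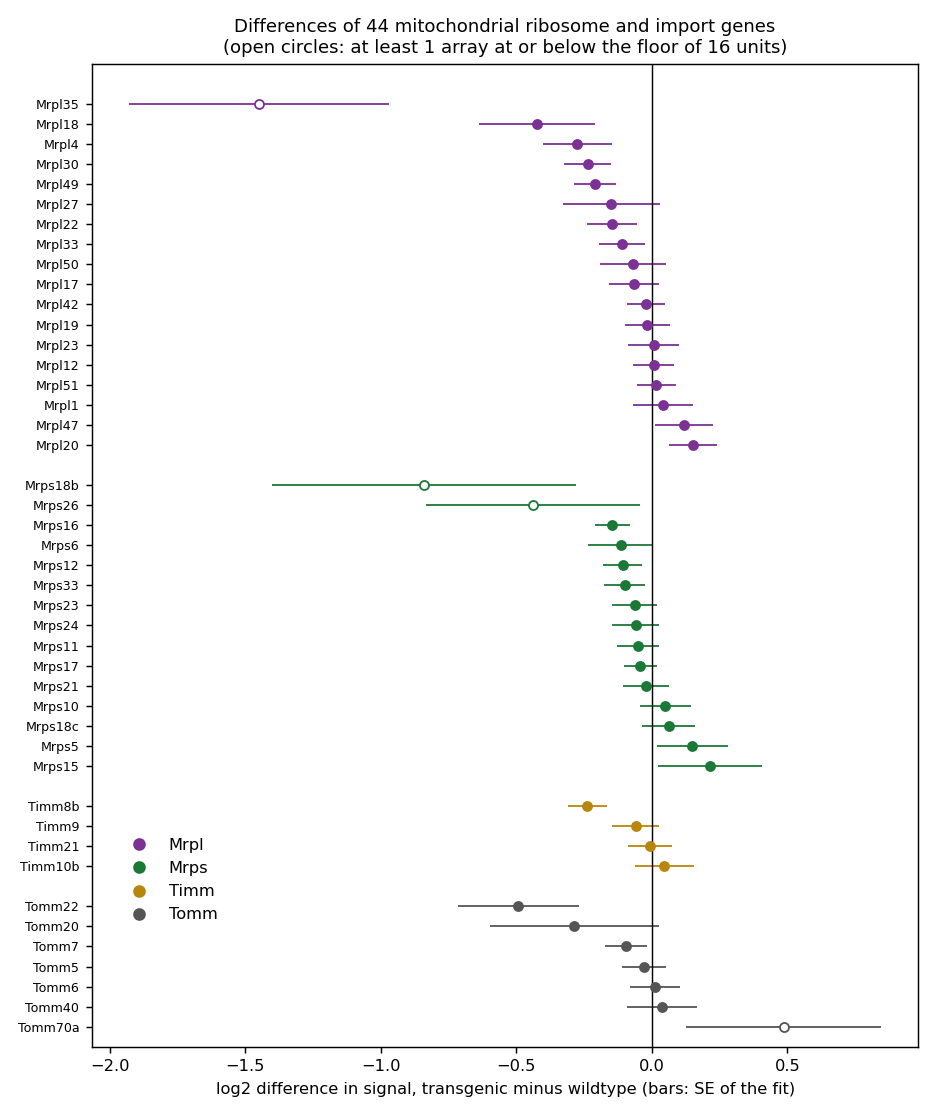
Log2 differences (transgenic minus wildtype, with the SE of the limma fit) of the 44 tested genes, grouped by family. Most points lie close to 0, 30 of 44 on the negative side, and the widest bars belong to dim genes with an array at or below the floor of 16 units (open circles), such as Mrpl35 at -1.45.

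By family, large-subunit genes had 12 of 18 tested members with a negative difference and a median of -0.07. Small-subunit genes had 11 of 15 and a median of -0.06. For import, 3 of 4 tested Timm genes were negative with a median of -0.03, and 4 of 7 Tomm genes with a median of -0.03 (0.0003 once array medians were aligned). In each animal, the median over all 44 genes of log2 signal relative to the wildtype mean was -0.01, -0.05, -0.09 and -0.08 in transgenic animals 1 to 4, against 0.04, 0.04, -0.06 and 0.01 in wildtype animals 1 to 4. Wildtype animal 3 lay among the transgenic values and transgenic animal 1 among the wildtype ones, so the groups overlapped. Over all tested probes the same median was between -0.06 and -0.01 in transgenic and between -0.02 and 0.001 in wildtype animals.

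**Figure D2:**
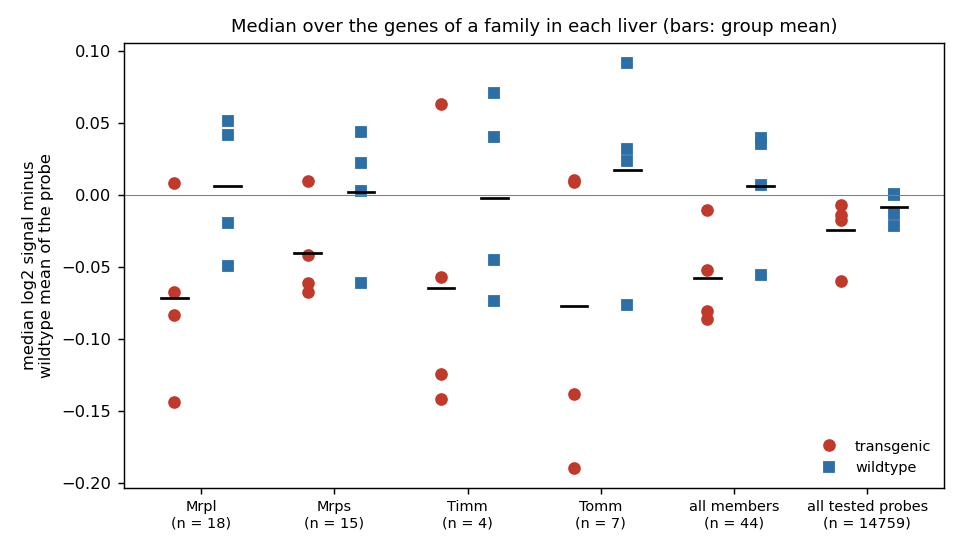
Median log2 signal of each family in each liver, relative to the wildtype mean of each probe, beside all tested probes (bars are group means). Transgenic and wildtype animals overlap in every family, and the 44 members together span -0.09 to -0.01 in transgenic and -0.06 to 0.04 in wildtype livers.

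Genes of this kind are known for promoters without a TATA box that bind NRF1, ETS factors such as GABP, and YY1, and these motifs were counted in their RefSeq promoter windows (assembly GRCm38.p6, 250 bases before to 50 after the start). A window was found for 44 of the 48 members. The ETS motif CCGGAAG was present on either strand in 20 of 44 member genes (45.5%), against 18.3% of 4018 genes with a tested probe and 9.93% of all 27025 genes of the table. The YY1 motif AANATGGC was present in 11 (25%), against 10.4% and 6.96%. The NRF1 motif (GCGCA, any base, GCGC) was present in 8 (18.2%), against 10.9% and 5.19%, and the TATA motif TATAAA in 3 (6.82%), against 11.6% and 15.7%. A match describes letters in the window and is not a site; no overlap between motifs was removed. Median GC content was 58.0% in member windows, 59.7% in those of genes with a tested probe and 52.7% in all.

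**Figure D3:**
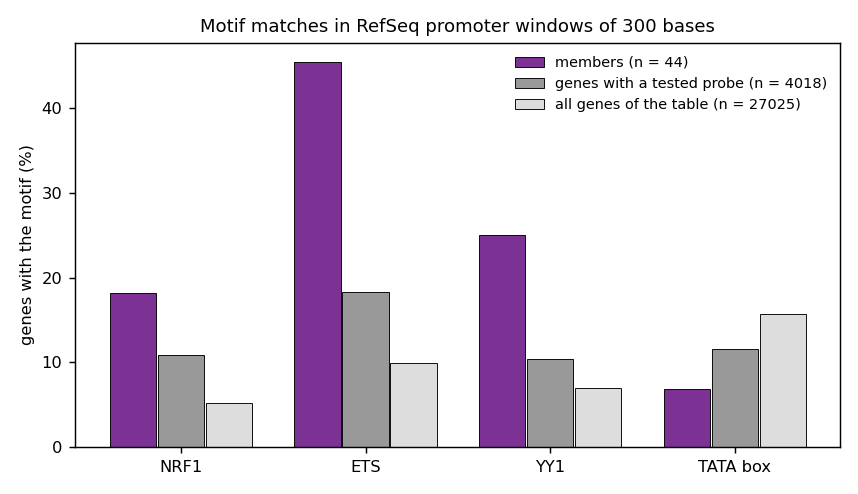
Share of genes whose RefSeq promoter window holds each motif, for the members, for all genes with a tested probe and for all genes of the table. ETS, YY1 and NRF1 matches are more frequent among the 44 members (45.5%, 25% and 18.2%) than in the other sets, and TATA matches less frequent (6.82%).

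The windows of 4 members are shown because their genes carry the differences described next: Timm8b and Mrps16 are the members whose groups did not overlap, Tomm22 had wildtype animals that stood apart from each other, and Mrpl35 had the most negative difference. Capitals mark ETS, NRF1 or YY1 motif matches. Timm8b lies at chr9:50603651-50603950 on the plus strand, with an ETS match at -12 to -6 and an NRF1 match at 19 to 28 from the start. Mrps16 lies at chr14:20393441-20393740 on the minus strand, with ETS matches at -74 to -68 and 25 to 31; a second window of this gene had none. Tomm22 lies at chr15:79670618-79670917 on the plus strand and has 3 ETS matches, of which 2 overlap on opposite strands. Mrpl35 lies at chr6:71823735-71824034 on the minus strand, with a YY1 match at 24 to 31.
Timm8b: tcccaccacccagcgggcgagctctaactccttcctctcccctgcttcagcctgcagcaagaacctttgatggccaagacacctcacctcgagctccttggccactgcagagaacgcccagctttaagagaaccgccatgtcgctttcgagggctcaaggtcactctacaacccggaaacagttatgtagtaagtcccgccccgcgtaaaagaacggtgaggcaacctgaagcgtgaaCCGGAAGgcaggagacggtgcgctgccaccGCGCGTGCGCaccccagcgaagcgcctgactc
Mrps16: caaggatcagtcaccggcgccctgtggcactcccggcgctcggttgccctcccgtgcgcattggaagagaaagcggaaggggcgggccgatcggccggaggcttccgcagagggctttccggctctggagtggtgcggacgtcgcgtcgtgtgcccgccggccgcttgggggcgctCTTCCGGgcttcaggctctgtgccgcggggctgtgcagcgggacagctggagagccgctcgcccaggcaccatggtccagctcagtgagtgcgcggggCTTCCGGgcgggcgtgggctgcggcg
Tomm22: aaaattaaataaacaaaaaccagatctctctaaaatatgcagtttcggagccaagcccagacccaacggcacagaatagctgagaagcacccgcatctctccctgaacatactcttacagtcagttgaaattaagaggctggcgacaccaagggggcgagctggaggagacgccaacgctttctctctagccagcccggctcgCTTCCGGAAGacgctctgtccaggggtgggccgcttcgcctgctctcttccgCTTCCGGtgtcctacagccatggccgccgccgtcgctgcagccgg
Mrpl35: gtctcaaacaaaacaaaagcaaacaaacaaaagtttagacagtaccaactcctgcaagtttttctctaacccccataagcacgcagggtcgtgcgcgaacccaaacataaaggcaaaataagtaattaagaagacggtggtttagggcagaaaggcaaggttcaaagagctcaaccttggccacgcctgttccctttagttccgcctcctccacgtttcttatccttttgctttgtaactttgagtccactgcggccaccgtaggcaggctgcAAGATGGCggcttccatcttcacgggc

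Large-subunit genes gave 3 of the 4 lower probes. Mrpl30, whose bacterial counterpart is the ribosomal protein L30, read 1288, 1243, 1279 and 1491 units in transgenic livers, against 1676, 1608, 1464 and 1492 units in wildtype livers. Only transgenic animal 4 reached the wildtype range. The mean was 1325 ± 112 units in transgenic livers, against 1560.1 ± 99.0 in wildtype livers (SD, n = 4 each), a log2 difference of -0.24 ± 0.09 (SE; limma unadjusted p = 0.0252, adjusted p = 0.667; exact permutation p = 0.0571). Mrpl49, a protein of the mitochondrial large subunit without a bacterial counterpart, read 1191, 1034, 1007 and 1091 units in transgenic livers, against 1234, 1318, 1187 and 1249 units in wildtype livers. The highest transgenic value, in animal 1, lay just above the lowest wildtype value. The log2 difference was -0.21 ± 0.08 (SE; limma unadjusted p = 0.0282, adjusted p = 0.687). An unadjusted p under 0.05 was reached in 13 of 19 alternative fits for Mrpl30 and in 12 for Mrpl49, but in only 3 and 2 of the 8 fits that left out an animal.

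Mrpl35 was dim. It read -15.8, -13.8, 0 and 45.8 units in transgenic animals 1 to 4, against 45.4, 85.8, 29.9 and 89.5 units in wildtype livers. Transgenic animals 1 to 3, which share a title stem, were below the floor, while transgenic animal 4, which has another stem, lay inside the wildtype range. The fitted log2 difference of -1.45 ± 0.48 (SE; limma unadjusted p = 0.0171, adjusted p = 0.629; exact permutation p = 0.0857) depends on the floor. It was between -2.20 and -0.72 under the other settings that gave a value.

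Further large-subunit genes had lower means with overlapping groups. Mrpl4, counterpart of bacterial L4, read 311, 351, 380.3 and 409.8 units in transgenic livers, against 500.2, 443, 362 and 454 units in wildtype livers. Only wildtype animal 3 lay within the transgenic range, and the log2 difference was -0.27 ± 0.13 (SE; limma unadjusted p = 0.0634, adjusted p = 0.754). Mrpl18, counterpart of bacterial L18, read 303, 412, 397 and 488 units in transgenic livers, against 637, 673, 393 and 466 units in wildtype livers. Its wildtype animals thus divided into a pair above all transgenic values and a pair within them, and the log2 difference was -0.42 ± 0.21 (SE; limma adjusted p = 0.774). On the positive side, Mrpl20, counterpart of bacterial L20, read 925, 1105, 993 and 1112 units in transgenic livers, against 919, 1009, 932 and 857 units in wildtype livers (log2 difference 0.15 ± 0.09, SE). Mrpl47, related to bacterial L29, read 830.5, 723, 602 and 746 units in transgenic livers, against 636, 644, 658 and 717 units in wildtype livers (log2 difference 0.12 ± 0.11, SE). The groups of both genes overlapped, and neither had an unadjusted p under 0.05 in limma.

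The brightest large-subunit probes showed no difference beyond their SE. Mrpl17, counterpart of bacterial L17, read 6136, 4747, 4939.8 and 5084 units in transgenic livers, against 5472, 5699.8, 5270.0 and 5332 units in wildtype livers (log2 difference -0.07 ± 0.09, SE). Mrpl12, reported to bind mitochondrial RNA polymerase as well, read 3783, 3492, 3698 and 3179 units in transgenic livers, against 3539.7, 3427, 3552 and 3537 units in wildtype livers (log2 difference 0.01, and -0.002 with array weights). The transgenic animals spread more widely than the wildtype ones at both probes, with an SD of 622 units in transgenic livers, against 191 in wildtype livers, for Mrpl17, and of 269 units in transgenic livers, against 58.4 in wildtype livers, for Mrpl12.

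Small-subunit genes had no probe at an unadjusted p under 0.05. Mrps16, counterpart of bacterial S16 and a cause of a human respiratory chain deficiency when mutated, came closest. It read 988, 1023, 1028 and 1042 units in transgenic livers, against 1169.9, 1075, 1090.1 and 1180.1 units in wildtype livers. Every transgenic value lay below every wildtype value, as it did for Timm8b; these 2 of 48 member probes (4.17%) stand against 3.56% of all tested probes (1.83% lower and 1.73% higher in transgenic livers). The log2 difference was -0.15 ± 0.06 (SE; limma unadjusted p = 0.0548, adjusted p = 0.735), with an exact two-sided permutation p of 0.0286, the smallest that 4 against 4 animals allow.

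Positive differences among small-subunit genes came with overlapping groups. Mrps5, counterpart of bacterial S5, read 2124, 1549, 1557 and 1413 units in transgenic livers, against 1439, 1533, 1399 and 1548 units in wildtype livers. Transgenic animal 1 stood above all others, and the log2 difference of 0.15 was 0.03 without it. Mrps15, counterpart of bacterial S15, read 148, 169, 165 and 174 units in transgenic livers, against 112, 207, 145 and 118 units in wildtype livers. Wildtype animal 2 was the highest of all 8, and the log2 difference was 0.22 ± 0.19 (SE). It ranged from 0.10 to 0.40 when 1 animal was left out. The fit without wildtype animal 2 (0.40, limma unadjusted p = 0.0125) was the only 1 of 19 alternative fits with an unadjusted p under 0.05. The lowest adjusted p of Mrps15 in those fits was 0.663. Mrps18c, one of a group of S18 paralogs, read 844, 895, 834 and 1024 units in transgenic livers, against 868, 953, 849 and 771 units in wildtype livers (log2 difference 0.06, and -0.001 without transgenic animal 4). Mrps10, counterpart of bacterial S10, read 2172, 1834, 1676 and 1758 units in transgenic livers, against 1789.5, 1759, 1719.8 and 1889 units in wildtype livers (0.05, and -0.03 without transgenic animal 1).

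The brightest small-subunit probes had small negative differences. Mrps24, counterpart of bacterial S3, read 6048, 5115, 5370.3 and 5031 units in transgenic livers, against 5565, 6041, 5149.8 and 5689 units in wildtype livers (log2 difference -0.06). Mrps21, counterpart of bacterial S21, read 4279.9, 3872, 3832 and 3422 units in transgenic livers, against 4020.1, 3942, 3653 and 3988 units in wildtype livers (-0.02). The sign of Mrps21 was positive with array medians aligned (0.01) and after quantile normalization (0.02). Mrps36, since assigned to the oxoglutarate dehydrogenase complex, read -11.0 to 2.70 units in transgenic livers, against 4.00 to 14.9 in wildtype livers, below the floor throughout, and was not tested.

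Import genes gave the member probe with the smallest p. Timm8b encodes a small TIM chaperone of the intermembrane space, a paralog of the gene mutated in human deafness-dystonia syndrome, that ferries hydrophobic precursors with Timm13. It read 2292, 2418, 2539 and 2613 units in transgenic livers, against 3103, 2794, 2795 and 2933 units in wildtype livers. The groups did not overlap. The mean was 2465 ± 141 units in transgenic livers, against 2907 ± 146 in wildtype livers (SD, n = 4 each), so that wildtype exceeded transgenic livers 1.18-fold, a log2 difference of -0.24 ± 0.07 (SE; limma unadjusted p = 0.0122, adjusted p = 0.606; exact permutation p = 0.0286). In 18 of 19 alternative fits the unadjusted p was under 0.05, including all 8 that left out an animal, and it was 0.0732 with array medians aligned. Its log2 difference stayed between -0.27 and -0.20 in these fits, and the adjusted p between 0.314 and 0.883.

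The other small TIM chaperones with a tested probe had smaller differences. Timm9, a chaperone that pairs with Timm10, read 2735, 2323, 2164 and 2317 units in transgenic livers, against 2557, 2324, 2528 and 2507 units in wildtype livers (log2 difference -0.06 ± 0.09, SE). Timm10b, a subunit of the TIM22 complex, read 769, 704, 594 and 564 units in transgenic livers, against 626, 626, 617 and 660.3 units in wildtype livers (log2 difference 0.05 ± 0.11, SE). Their groups overlapped, and whether their differences depart from that of Timm8b was not tested. Timm23, the channel of the presequence translocase, and Timm29, a TIM22 subunit, read at or below the floor in all 8 animals, with values up to 6.6 and -1.4 units, so these probes gave no comparison.

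Of the outer membrane receptors, Tomm22, which organises the TOM complex, had the largest negative difference among bright import probes. It read 375, 397, 387 and 358 units in transgenic livers, against 729, 405, 695 and 393 units in wildtype livers. Wildtype animals 1 and 3 stood well above all others, while wildtype animal 4 lay within the transgenic range and wildtype animal 2 just above it. The log2 difference of -0.49 ± 0.22 (SE; limma unadjusted p = 0.0589, adjusted p = 0.754; exact permutation p = 0.0571) was -0.34 without wildtype animal 1 and -0.36 without wildtype animal 3. Tomm20, the receptor for presequences, read 29.9, 32.3, 36.5 and 24.9 units in transgenic livers, against 51.9, 44.7, 19.1 and 43.8 units in wildtype livers. Wildtype animal 3 was the lowest of all 8, and the log2 difference was -0.29 ± 0.31 (SE). It was -0.61 without that animal (limma unadjusted p = 0.0046), -0.13 without wildtype animal 1 and -0.36 with a floor of 32 (unadjusted p = 0.0375). Tomm70a, the receptor for carrier precursors, read 53.5, 25.9, 40 and 30.5 units in transgenic livers, against 19.7, 43.8, 31.8 and 9.80 units in wildtype livers, with 1 wildtype array below the floor. Its log2 difference of 0.49 ± 0.36 (SE) depended on the floor, with 0.66 at a floor of 8, 0.15 at a floor of 32 and 0.14 after normexp, and was 0.26 to 0.74 when 1 animal was left out. Tomm40, the pore itself, read 82.2, 73.4, 70.5 and 56.5 units in transgenic livers, against 66.7, 63.9, 64.7 and 78.5 units in wildtype livers (log2 difference 0.04 ± 0.13, SE).

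The small TOM subunits, which steady the complex, differed little. Tomm7 read 2242, 2333, 2338 and 2377 units in transgenic livers, against 2646, 2674, 2254 and 2384 units in wildtype livers (log2 difference -0.10 ± 0.08, SE). Tomm5 read 1176, 1265, 1202 and 1047 units in transgenic livers, against 1276, 1124, 1159 and 1220.4 units in wildtype livers (-0.03, and 0.0003 with array medians aligned). Both had overlapping groups.

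**Figure D4:**
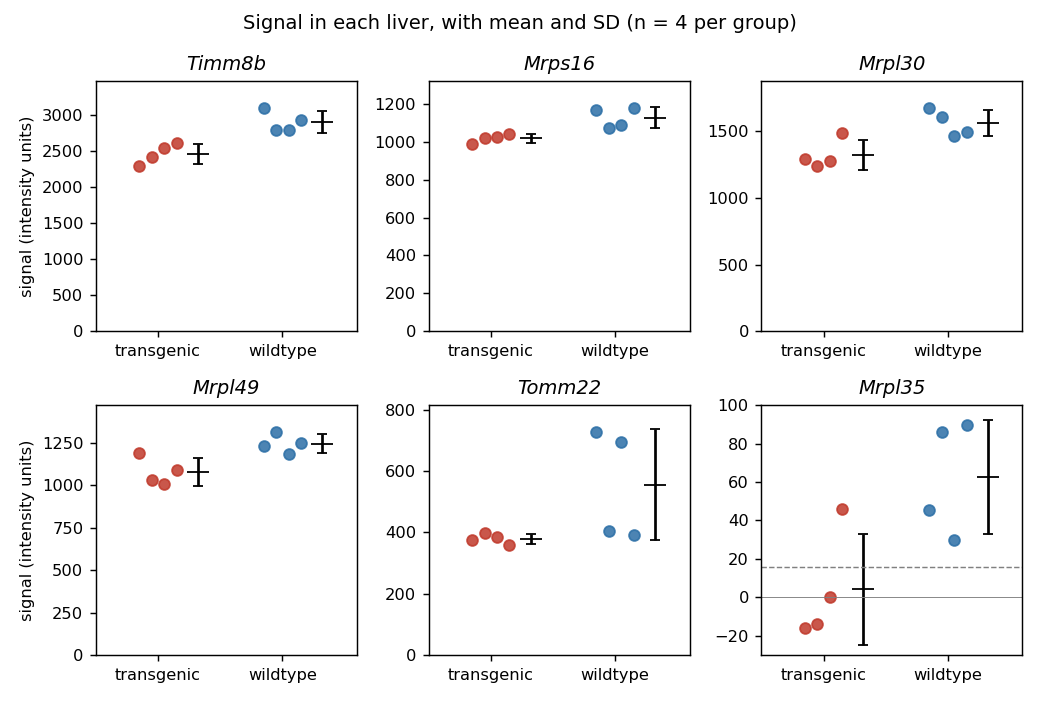
Signal in intensity units of each liver for 6 members, with group mean and SD (n = 4 per group; dashed line in the Mrpl35 panel, the floor of 16 units). Timm8b and Mrps16 separate the groups, Mrpl30 and Mrpl49 overlap by 1 animal, Tomm22 shows 2 wildtype animals well above the rest, and 3 transgenic animals lie at or below 0 for Mrpl35.

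Of the members, 5 genes had more than 1 probe, 1 bright and the rest dim. Mrpl1, counterpart of bacterial L1, read 73.6, 82.2, 64.3 and 99.7 units in transgenic livers, against 55.7, 53.9, 70.3 and 59.6 units in wildtype livers at a dim probe (log2 difference 0.41 ± 0.15, SE; limma unadjusted p = 0.0281, adjusted p = 0.687). Transgenic animal 3 lay within the wildtype range there. Its bright probe read 735 to 1024 units in transgenic livers, against 782 to 849 in wildtype livers, a difference of 0.04 that was -0.01 with array weights and -0.06 without transgenic animal 1. Mrpl51 read 3036 to 3524 units in transgenic livers, against 3064 to 3283 in wildtype livers at the bright probe (0.02), and 7.0 to 41.0 units in transgenic livers, against 27.6 to 35.2 in wildtype livers at the dim one (-0.44, and 0.01 with a floor of 32), where 2 transgenic arrays were below the floor. Timm21, which links the TIM23 complex to the outer membrane, read 824, 822, 815 and 857 units in transgenic livers, against 917, 772, 769 and 887 units in wildtype livers at its bright probe (-0.01, and 0.02 with medians aligned). Its 2 dim probes were at or below the floor in all 4 and in 3 transgenic livers, and in 2 wildtype livers each, so no fold is given. Mrpl19 read 260.2, 236, 219 and 245 units in transgenic livers, against 266, 228, 240.5 and 236 units in wildtype livers at its bright probe (-0.02, and 0.01 with medians aligned). Mrpl19 and Mrps10 each had a further probe that was at or below the floor in all 8 animals.

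**Figure D5:**
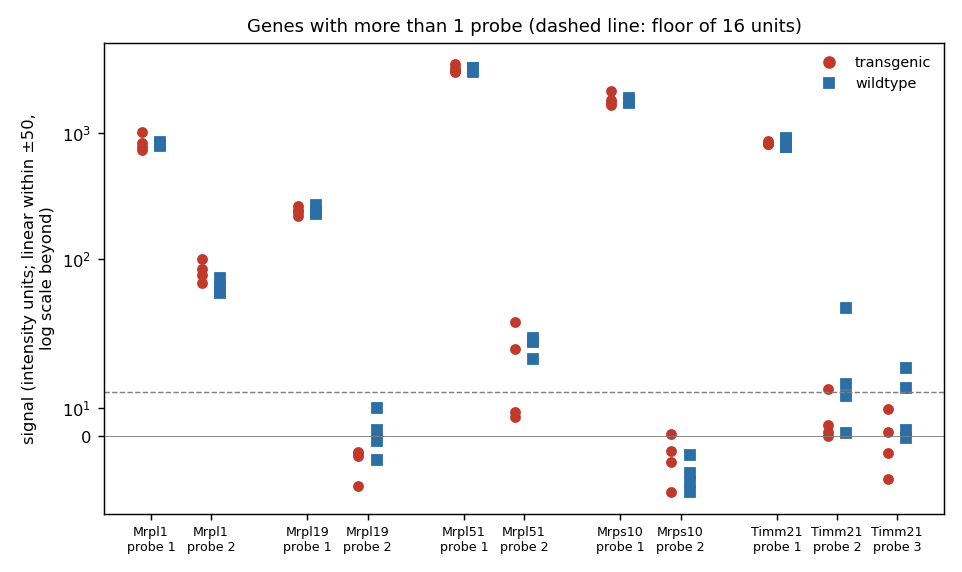
Signals of the 5 genes with more than 1 probe, on an axis that is linear within 50 units of 0 and logarithmic beyond (dashed line, the floor of 16 units). For each gene the brightest probe overlaps between the groups, and the further probes of Mrpl19, Mrps10 and Timm21 lie mostly below the floor.

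The remaining 15 tested member genes had log2 differences from -0.84 to 0.01, 13 of them negative, and none had an unadjusted p under 0.156 in limma. The extreme belonged to Mrps18b, named here after its values were seen, at 27.4 ± 16.2 units in transgenic livers, against 56.4 ± 46.7 in wildtype livers (SD, n = 4 each), where wildtype animal 2 read 126 units. Of the 15 genes 2 had an array at or below the floor, and without these the range began at -0.15. Bright members were measured tightly: the median SD within groups was 0.11 on the log2 scale over the 38 member probes with a mean signal over 100 units, against 0.15 over all such probes. In all, 41 of 48 tested member probes lay above the floor on every array. The 6 probes that were not tested belonged to Mrpl19, Mrpl32, Mrps10, Mrps36, Timm23 and Timm29, and 4 of these genes had no other probe.

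Translation factors, tRNA synthetases, ribosome assembly genes and import partners had medians near 0 as well. Of 5 tested translation factors 2 had positive and 3 negative differences (median -0.05), with Gfm2, a factor that recycles mitochondrial ribosomes, at 536 ± 29.3 units in transgenic livers, against 489 ± 21.3 in wildtype livers (SD, n = 4 each). Mtif2, counted as positive, was at or below the floor on 7 of 8 arrays. Of 8 mitochondrial tRNA synthetases 4 were positive and 4 negative (median -0.01), with Ears2, the glutamyl enzyme, at 284 ± 17.0 units in transgenic livers, against 317 ± 13.7 in wildtype livers. Mars2, counted as negative, was at or below the floor on 7 of 8 arrays. Ribosome assembly and RNA handling genes had 5 of 9 positive (median 0.01), and import partners 5 of 10 (median -0.001), with Romo1 at a log2 difference of -0.18. Among the positive import partners, Dnajc11 was at or below the floor on 6 arrays and Agk on 4. Over these 4 lists 0 of 32 genes had an unadjusted p under 0.05 in limma, against 6.82% of all tested probes, and 0 an adjusted one.

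Among 4 tested genes of mitochondrial DNA transcription and its nuclear control, 3 had negative differences and 1 did not. Their median was -0.17, further from 0 than in the lists above, but it rests on 4 genes, with Gabpa and Gabpb1 among them at dim probes. Of the 4, 1 was higher at an unadjusted p under 0.05 in limma, where 3.23% of all tested probes were higher. Ppargc1b, a coactivator of nuclear genes for mitochondrial proteins, read 451, 352, 391 and 322 units in transgenic livers, against 272, 264, 242 and 297 units in wildtype livers. All 4 transgenic values lay above all wildtype values, with a log2 difference of 0.49 ± 0.12 (SE; limma unadjusted p = 0.00405, adjusted p = 0.562). Of all tested probes, 1.73% were higher in transgenic livers without overlap. The ETS factor Gabpa and its partner Gabpb1 had log2 differences of -0.54 ± 0.26 and -0.33 ± 0.20 (SE) at dim probes, and Gabpa had 1 array at or below the floor. Oxidative phosphorylation genes, some of whose partners the mitochondrial ribosome makes, had 24 of 40 tested members with negative differences and a median of -0.04. Of these, 1 was higher and 1 lower at an unadjusted p under 0.05, where 3.23% of all tested probes were higher and 3.59% lower: Sdhb, of succinate dehydrogenase, at 4550 ± 159 units in transgenic livers, against 4053 ± 252 in wildtype livers, and Ndufa4, found with complexes I and IV, at 8975 ± 284 units in transgenic livers, against 10344 ± 834 in wildtype livers (SD, n = 4 each). Genes of mitochondrial fission, fusion and quality control had 3 of 6 positive differences (median 0.02) and none at that level.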

How the data were processed

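Liver RNA of 8 mice was measured on Illumina bead arrays, 1 array per animal, which limits the precision. Per the labels, animals fall into Gpx3 transgenic and B6/DBA wildtype groups; replicate numbers follow the order of deposition and pair nothing. The authors deposited a background-subtracted intensity per probe, made with BeadStudio 1.5.1.3 per the submitters' processing notes, and 33.1% to 35.3% of values per array lie below 0. No further normalization by the authors is given in the sources used here. A further table with 64 value columns was not used, since no label ties its columns to samples. Probes were named through the NCBI Gene ID in the probe identifier and the RefSeq table of GRCm38.p6, which gave 8884 of 24048 probes a gene; other probes are unnamed here.

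Values were floored at 16, log2-transformed and compared with limma 3.58.1 (lmFit, eBayes) in R 4.3.3 with Benjamini-Hochberg adjustment over 14759 probes above the lower quartile. Single members also have an exact two-sided permutation p (scipy 1.17.1). Scripts were tested on simulated data. Alternatives were array medians aligned, quantile and cyclic loess normalization, normexp with an offset of 50, floors of 8 and 32, other filters, limma-trend, array weights and leaving out each animal. The p-values measure only the spread among these 8 samples.

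Named with values are the 8 genes of smallest p in each direction, the 2 brightest of each family, small TIM chaperones, pore and receptor genes, genes with several probes and the 3 of widest spread within groups among those above the floor on all arrays. The members and lists were chosen with earlier results of these data known.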

Additional observations from a re-analysis of the deposited data

Results flagged for a closer look

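In 6 of 96 groups of 4 animals (6.25%), 1 member value stood apart from the other 3 by Dixon's test at the 95% level. The test used floored log2 values, while the units below are as deposited. Where values of a group were set to the floor, as for Mrpl35 and Timm21 below, the flag depends on the floor. A chance share of about 1 in 20 therefore cannot be set against this count. Mrpl12 read 3427.0 units in wildtype animal 2 and 3537.3 to 3552.1 units in the other wildtype animals. For Mrpl35, transgenic animal 4 read 45.8 units and the other transgenic animals -15.8 to 0.0 units. Tomm20 read 19.1 units in wildtype animal 3 and 43.8 to 51.9 units in the others. A dim Timm21 probe read 24.6 units in wildtype animal 2, against -0.6 to 17.2 units in the other wildtype animals. Another dim Timm21 probe read 17.0 units in transgenic animal 4, against 0.2 to 4.0 units in the other transgenic animals, and 46.1 units in wildtype animal 2, against 1.3 to 18.7 units in the other wildtype animals.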

How the results depend on the processing

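No alternative gave a member probe an adjusted p under 0.05 by limma, and the median member difference stayed negative, between -0.07 and -0.02 on the log2 scale. The 5 probes at an unadjusted p under 0.05 were 2 with array medians aligned and 8 with limma-trend, and 2 to 8 when 1 animal was left out. Over all tested probes the count was 1006 as reported, 851 with array medians aligned, 1037 with limma-trend and 802 to 1308 when 1 animal was left out. The 14 genes with a positive difference were 7 to 18 when 1 animal was left out, 7 of them without transgenic animal 1. Of all tested probes, 43.0% to 49.6% were positive in those fits. Sign changes were counted for the 33 tested probes of the genes named with values, where 29 of 613 values changed sign. Outside that count, log2 differences ranged from -0.030 to 0.082 for Mrpl23, -0.044 to 0.017 for Mrpl42 and -0.048 to 0.060 for Tomm6 over all alternatives. Of 76 values of the 4 family medians, 3 changed sign. The cause of these changes was not tested. The 3 family values were those of the Tomm median, at 0.00031 with array medians aligned, 0.00099 without transgenic animal 4 and 0.0033 without wildtype animal 1, against -0.029 as reported. With array medians aligned, Mrpl19 was at 0.013, Mrps21 at 0.0074, Timm21 (bright probe) at 0.022 and Tomm5 at 0.00031. After quantile normalization, Mrpl19 was at 0.0092, Mrps21 at 0.023 and Timm21 at 0.016, and after cyclic loess Timm21 was at 0.0089. With a floor of 32 the dim Mrpl51 probe was at 0.011. With array weights, Mrpl1 (bright probe) was at -0.0076 and Mrpl12 at -0.0022. When 1 animal was left out, log2 differences ranged from -0.039 to 0.14 for Tomm40, -0.058 to 0.10 for Mrpl1, -0.032 to 0.12 for Timm10b, -0.026 to 0.057 for Mrpl12 and -0.027 to 0.097 for Mrps10. They ranged from -0.026 to 0.046 for Mrpl51 (bright probe), -0.056 to 0.029 for Mrpl19, -0.046 to 0.038 for Timm21, -0.074 to 0.034 for Mrps21, -0.067 to 0.024 for Tomm5 and -0.00086 to 0.11 for Mrps18c. No paired analysis was possible because the labels give no replicate numbers. Signal over background limits the 7 of 48 tested member probes that had an array at or below the floor.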
